A study of Mus musculus with 51 samples.

Results

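The regulatory landscape of the 4 mouse genes Runx1, Runx2, Runx3 and Cbfb was followed through the formation of astrocytes in culture, as peaks of the histone marks H3K27ac and H3K4me1. The cells were astroglial progenitors (aNPC) derived from C57/BL-6 embryonic stem cells and grown in DMEM-F12 with N2, EGF and FGF-2, early astrocytes (eA) after 1 day in DMEM with 1% FBS and LIF, and late astrocytes (lA) after 5 days in the same medium. All 3 groups came from embryonic stem cells and none from brain tissue. Chromatin immunoprecipitation followed by sequencing (ChIP-seq) was done on 2 biological replicates per stage and mark, which the authors merged before calling peaks, so each stage has 1 list per mark and no error between cultures can be given. A peak was assigned to a gene if it overlapped, by at least 1 bp, the gene body with 50 kb on each side, in the mm9 build. This rule found 543 of the 803595 peaks in the 6 lists, of which 168 were at Runx1, 221 at Runx2, 48 at Runx3 and 106 at Cbfb.

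RUNX proteins are transcription factors that share the Runt domain, which binds DNA and also binds CBFb, the product of Cbfb. CBFb does not bind DNA itself and raises the affinity of its RUNX partner. Runx1 is best known from blood formation, Runx2 from bone formation, and Runx3 from T cells and from sensory neurons of the dorsal root ganglia. Each Runx gene has a distal promoter, P1, and a proximal promoter, P2, which give proteins with different N-termini. H3K4me1 marks enhancers, whether active or not, and the flanks of promoters. H3K27ac marks active enhancers and active promoters.

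The sequences that the results return to are shown here from the mm9 genome, 5′ to 3′ on the strand of the gene, with matches to the RUNX core word in capitals. The word was TGTGGT or TGCGGT, sought on both strands, so ACCACA and ACCGCA are the same words read from the other strand. The first sequence is shown because it precedes the promoter where an H3K27ac peak was found in lA alone. It is the 200 bp before the outermost annotated start of Runx2 (chr17:44951747-44951946, minus strand), and it holds 1 word, as do the windows before 14.6% of 22219 coding genes.
Runx2 before P1: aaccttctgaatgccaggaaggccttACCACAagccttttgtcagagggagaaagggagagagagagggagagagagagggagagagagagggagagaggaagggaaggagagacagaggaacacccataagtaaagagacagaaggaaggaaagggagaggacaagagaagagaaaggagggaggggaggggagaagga

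The next 3 sequences are the 200 bp around summits of H3K27ac in the introns of Runx2. The first (chr17:44725528-44725727) and the second (chr17:44847492-44847691) belong to the intronic peaks with the highest and second-highest −log10 q in lA, and neither holds the word. The third (chr17:44724782-44724981) belongs to the peak next to the first, as called in eA, and holds 2 words. It was picked only among eA peaks whose window holds the word, so the presence of the word is no result. The window around the lA summit of the same element holds 1 word.
Runx2 intron, 226 kb: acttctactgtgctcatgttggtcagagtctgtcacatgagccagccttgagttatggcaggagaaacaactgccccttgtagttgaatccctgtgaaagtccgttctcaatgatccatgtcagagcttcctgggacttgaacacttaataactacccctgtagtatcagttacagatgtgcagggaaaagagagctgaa
Runx2 intron, 104 kb: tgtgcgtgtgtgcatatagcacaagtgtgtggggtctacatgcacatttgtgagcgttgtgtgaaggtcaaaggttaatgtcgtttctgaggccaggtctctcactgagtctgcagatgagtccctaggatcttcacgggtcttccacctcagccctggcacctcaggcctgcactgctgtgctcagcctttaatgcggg
Runx2 intron, 227 kb: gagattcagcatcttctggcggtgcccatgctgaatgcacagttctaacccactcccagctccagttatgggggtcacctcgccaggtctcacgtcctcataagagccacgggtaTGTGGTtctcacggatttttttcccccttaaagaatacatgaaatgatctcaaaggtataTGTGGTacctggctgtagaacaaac

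One sequence of each of the other genes is shown as an example of an element that holds the word. At Runx1 it is the window around an intronic summit of eA (chr16:92624111-92624310, minus strand), in a region that had an H3K27ac peak at all stages, although the peak of aNPC lies beside the window and not in it. At Runx3 it is an intronic window first marked by H3K27ac in eA (chr4:134715179-134715378, plus strand), with 3 words in 200 bp. At Cbfb it is the element upstream of the gene (chr8:107676668-107676867, plus strand, summit of lA).
Runx1 intron, 202 kb: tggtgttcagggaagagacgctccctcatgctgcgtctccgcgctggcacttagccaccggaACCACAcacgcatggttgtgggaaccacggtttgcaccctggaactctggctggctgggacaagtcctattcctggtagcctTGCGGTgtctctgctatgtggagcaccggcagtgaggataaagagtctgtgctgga
Runx3 intron, 38.7 kb: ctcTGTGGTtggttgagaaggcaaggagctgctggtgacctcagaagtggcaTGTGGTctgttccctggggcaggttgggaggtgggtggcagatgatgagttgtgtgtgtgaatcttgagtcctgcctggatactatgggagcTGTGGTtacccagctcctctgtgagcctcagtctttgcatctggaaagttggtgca
Cbfb upstream, -17.8 kb: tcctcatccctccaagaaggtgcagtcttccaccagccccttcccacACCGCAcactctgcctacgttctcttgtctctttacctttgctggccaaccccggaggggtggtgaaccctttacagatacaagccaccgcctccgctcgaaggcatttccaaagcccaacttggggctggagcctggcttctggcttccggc

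The lists held 79413, 83433 and 92700 H3K27ac peaks in aNPC, eA and lA, and 154238, 185478 and 208333 H3K4me1 peaks. The depth of the merged libraries is unknown here, so the −log10 q of a peak was ranked against its own list, and counts above a fixed −log10 q are given only as alternatives to the counts of all peaks. Of the astrocyte genes, Gfap had 3.83%, 9.83% and 8.64% of its window under H3K27ac peaks in aNPC, eA and lA, and Aqp4 had 1.47%, 9.99% and 9.98%. The other astrocyte genes differed less, with 6.52%, 8.35% and 7.39% at Aldh1l1 and 1.71%, 2.47% and 2.82% at Gja1, and with lower values in lA than in aNPC at S100b (3.21% in aNPC and already 1.64% in eA) and Slc1a3 (7.82%, 7.63% and 6.10%). An H3K27ac promoter peak was found at 3, 3 and 4 of these 6 genes, close to the share of 50.6%, 53.3% and 48.2% over all coding genes. The progenitor genes Sox2 and Nes had one at every stage, as did the neuronal gene Tubb3, whereas Olig2 and the neuronal genes Rbfox3 and Dcx had none at any stage. None of the 6 microglia and blood genes (Ptprc, Aif1, Cx3cr1, Itgam, Sfpi1 and Csf1r), none of the 4 genes of bone and mesenchyme and none of the 3 oligodendrocyte genes had one at any stage. H3K27ac peaks elsewhere in the windows of the microglia and blood genes covered a median of 2.10%, 3.03% and 4.09%, and those of the genes of bone and mesenchyme 3.76%, 4.69% and 4.29%, where the median coding gene had 2.44%, 2.70% and 2.73%. The part of other cell types in the Runx results was not tested.

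**Figure D1:**
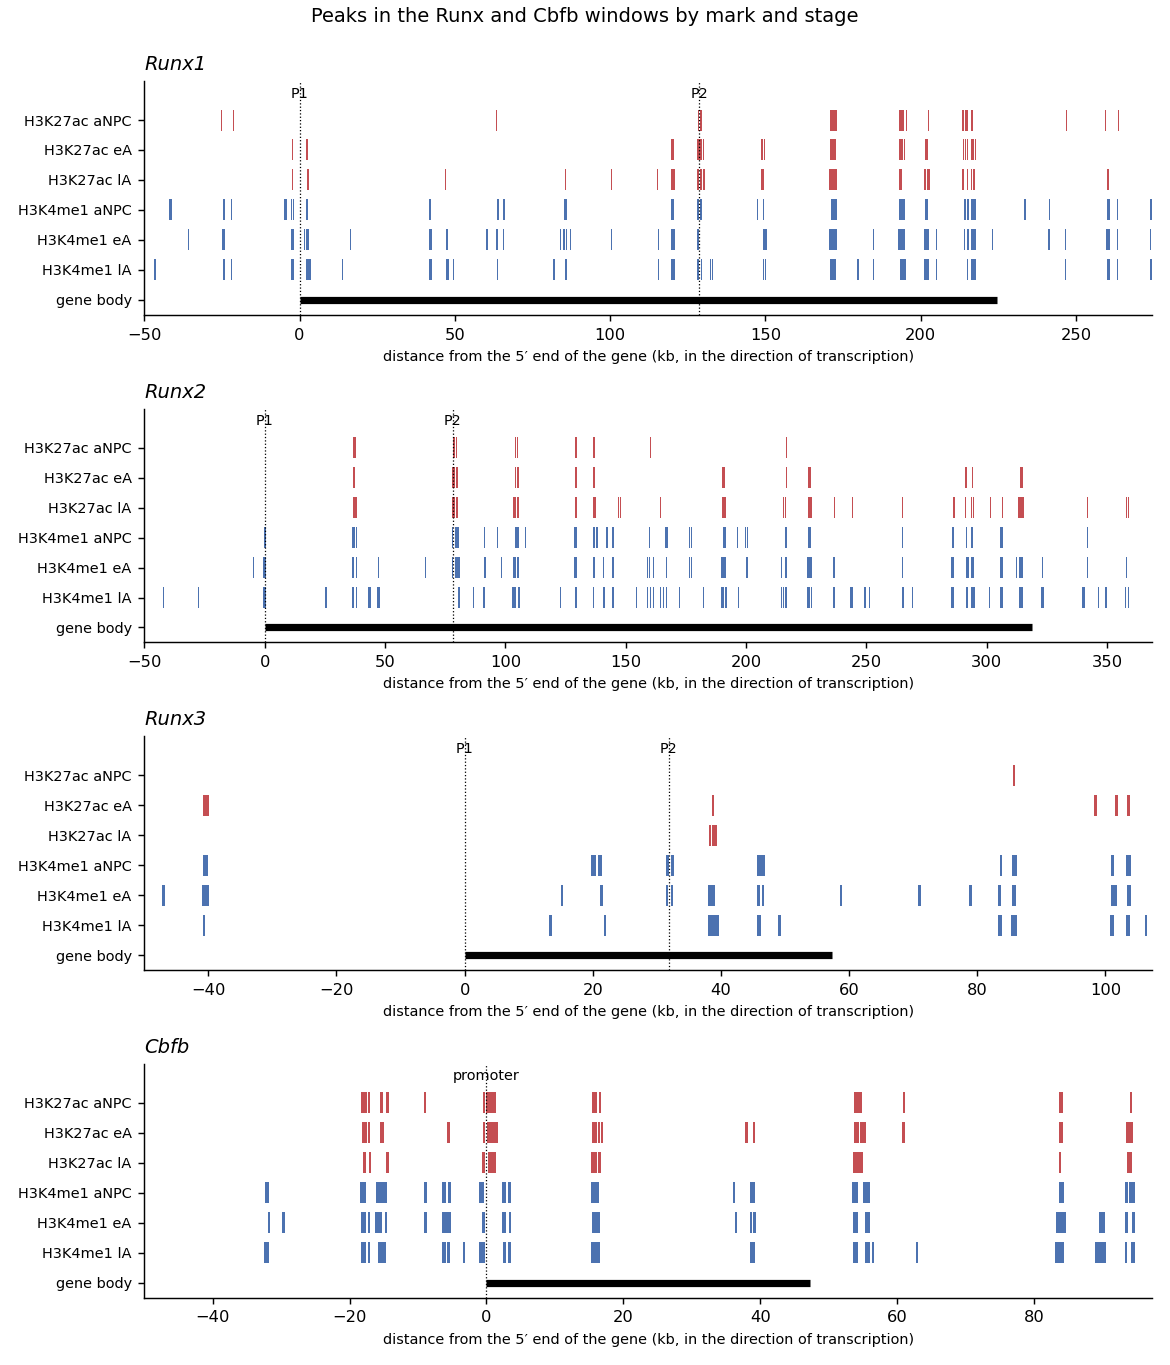
Peaks of H3K27ac (red) and H3K4me1 (blue) in aNPC, eA and lA, drawn by distance in kb from the 5′ end of each gene in the direction of transcription, with the gene body in black and dotted lines at the promoters. Narrow peaks are drawn at a minimum width so that they can be seen. The row of H3K27ac in lA is the fullest at Runx2 (38 peaks), while Runx3 has no H3K27ac peak at either promoter.

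Runx2, the regulator of bone cell formation, had more H3K27ac peaks at each later stage. Its window held 11, 20 and 38 H3K27ac peaks in aNPC, eA and lA. They covered 5895, 10951 and 19379 bp, which is 1.41%, 2.61% and 4.63% of the 419-kb window. The number of peaks in lA was 3.45 times that in aNPC, and whether more cells carried the mark or each cell carried it at more places cannot be told apart in such bulk samples. Among windows of coding genes with at least 10 peaks in either stage, 16.7% had at least 2 times as many peaks in lA as in aNPC. The median ratio was 1.20, and 95.9% of windows had a lower ratio than Runx2. The difference in cover, 3.22 percentage points, was exceeded by 903 of 22219 coding genes, and the median difference was 0. The step from eA to lA was 1.90-fold in peaks, just short of the 2 times that 3.37% of windows reached or passed. The step from aNPC to eA was 1.82-fold, where 13.0% reached or passed it. The peaks numbered 8, 17 and 23 at a −log10 q of at least 5, and 3, 12 and 15 at 10. With equal list sizes they numbered 11, 18 and 25. The step from eA to lA was thus smaller under each of these alternatives than over the full lists.

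At Runx2 there were 38, 49 and 65 H3K4me1 peaks in stage order, which covered 4.76%, 6.66% and 9.14% of the window. The ratio of lA to aNPC was 1.71, below the 2 times that 9.57% of windows reached or passed. Its steps of 1.29-fold to eA and 1.33-fold from there to lA compare with 2.87% and 2.19% of windows at 2 times or more. The step to eA was not found with equal list sizes, which gave 38, 38 and 55 peaks, nor at a −log10 q of at least 10, which gave 21, 19 and 27. The difference in H3K4me1 cover, 4.38 percentage points, was exceeded by 737 coding genes, where the median was 0.600. The coding genes closest to Runx2 in the share of the window under the 6 lists were Rhoh, Pde3a and Gm17359, at distances of 0.934, 0.965 and 0.975 percentage points against a median of 7.74 over all coding genes.

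**Figure D2:**
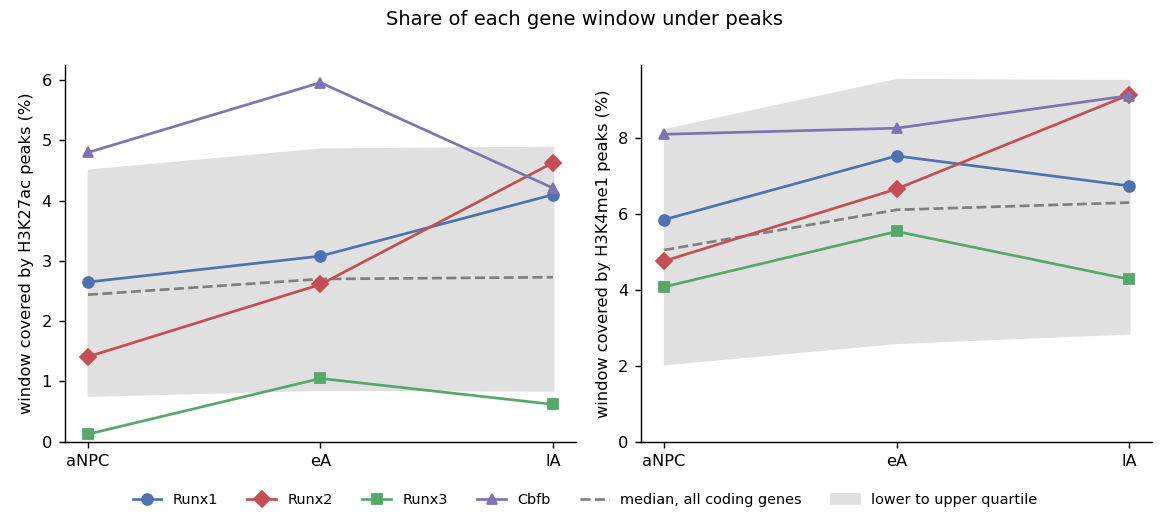
Share of each gene window, in percent, under H3K27ac peaks (left) and H3K4me1 peaks (right) in aNPC, eA and lA, with the median of all coding genes as a dashed line and the range from the lower to the upper quartile in grey. Runx2 moves from below the median in aNPC to 4.63% under H3K27ac and 9.14% under H3K4me1 in lA, whereas Runx3 stays below the median of both marks at every stage.

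The promoters of Runx2 differed in H3K27ac. At P2, 78.0 kb downstream of P1, H3K27ac peaks were found at all stages, 2, 2 and 3 in stage order. The P2 region nearer to P1, chr17:44872606-44873786, had −log10 q values above 85.2%, 87.2% and 93.2% of the peaks in the respective lists. At P1 there was no H3K27ac peak in aNPC or eA, and 1 in lA, at chr17:44951488-44951760, with a −log10 q of 10.8 that was above 60.9% of its list. This peak is 273 bp wide and its summit lies 67 bp upstream of the nearest coding start site. The 200 bp around the summit hold 2 RUNX words, and the sequence just before it, shown above, holds a further one.

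H3K4me1 was present at Runx2 P1 before H3K27ac. It appeared there as 2 narrow peaks in aNPC with −log10 q values of 4.24 and 3.08, above 11.0% and 2.67% of the list. In eA there was 1 peak of 976 bp, above 74.4% of its list, and in lA 1 peak of 1014 bp, above 88.4%. At P2 the H3K4me1 peak in lA, chr17:44870433-44871612, lay downstream of the main P2 region and no longer overlapped it, while both marks overlapped there in aNPC and eA.

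The H3K27ac peaks of Runx2 at the 3 stages merged into 35 regions, of which 8 had a peak at all stages, 7 in eA and lA, 19 in lA alone and 1 in aNPC alone. The lA-only share was 54.3%, where 19.3% of all 132992 H3K27ac regions in the genome were lA-only. Of all regions, 13.9% were marked in eA and lA, the pattern of 7 of the 35 at Runx2. A further 26.0% were marked at all stages, the pattern of 8 at Runx2, and 21.5% in aNPC alone, the pattern of 1. Per 100 kb, Runx2 had 4.54 lA-only regions, the median coding gene 0.678, and 550 genes had more. Of these 19 regions, 15 were intronic, 3 lay in the 3′ flank and 1 was P1. Most were weak: their −log10 q values ran from 1.93 to 10.8, and 5 of the regions reached at least 5, among them P1. When only peaks with a −log10 q of at least 5 were kept in all lists, lA-only regions at Runx2 numbered 6 of 19 (31.6%, against 17.5% of all regions). With the same number of peaks in each list they numbered 7 of 23 (30.4%, against 15.1%). At a −log10 q of at least 10 they numbered 4 of 14 (28.6%, against 11.9%). With peaks within 500 bp joined they numbered 12 of 24, where 16.3% of all regions were lA-only. The number of lA peaks themselves fell to 23 and 25, against 8 and 11 in aNPC, so lA still had more peaks than aNPC.

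The 7 regions marked in eA and lA held stronger peaks. All 7 were intronic, and their median −log10 q in lA was 29.6, where the list had 8.34, and in eA it was 9.38, where the list had 9.74. The strongest in lA was the one at 226 kb from the 5′ end, which lies next to one at 227 kb. In lA the region at 226 kb, chr17:44725298-44726134, had a −log10 q of 59.7, the highest of all Runx2 peaks at that stage and above 97.2% of the list. In eA its strongest part was above 76.6% of the list, and in aNPC it had no H3K27ac peak but an H3K4me1 peak of 1494 bp above 83.9% of that list. Its neighbour, chr17:44724468-44725055, was above 89.9% of the lA list and 73.0% of the eA list. A further pair lay at 314 and 315 kb, near the 3′ end of the gene. The first of these, chr17:44637709-44638593, was above 92.8% of the lA list and its eA counterpart above 48.2%.

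Regions marked by H3K27ac at all stages are given by their rank within each list, which does not measure a change between stages. The intronic region at 104 kb, chr17:44847255-44848481 in lA, ranked above 47.0%, 85.5% and 96.4% of the peaks in the lists from aNPC to lA, and its peak was 465, 588 and 1227 bp wide. The region at 105 kb ranked above 68.4%, 70.6% and 55.2%. The strongest H3K27ac region within the Runx2 body in aNPC, with a −log10 q of 136, was the promoter of Supt3h, which codes for a subunit of the SAGA coactivator complex and overlaps Runx2 on the opposite strand. It had H3K27ac at all stages, so its peaks count in the Runx2 window without being Runx2 elements by position alone.

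**Figure D3:**
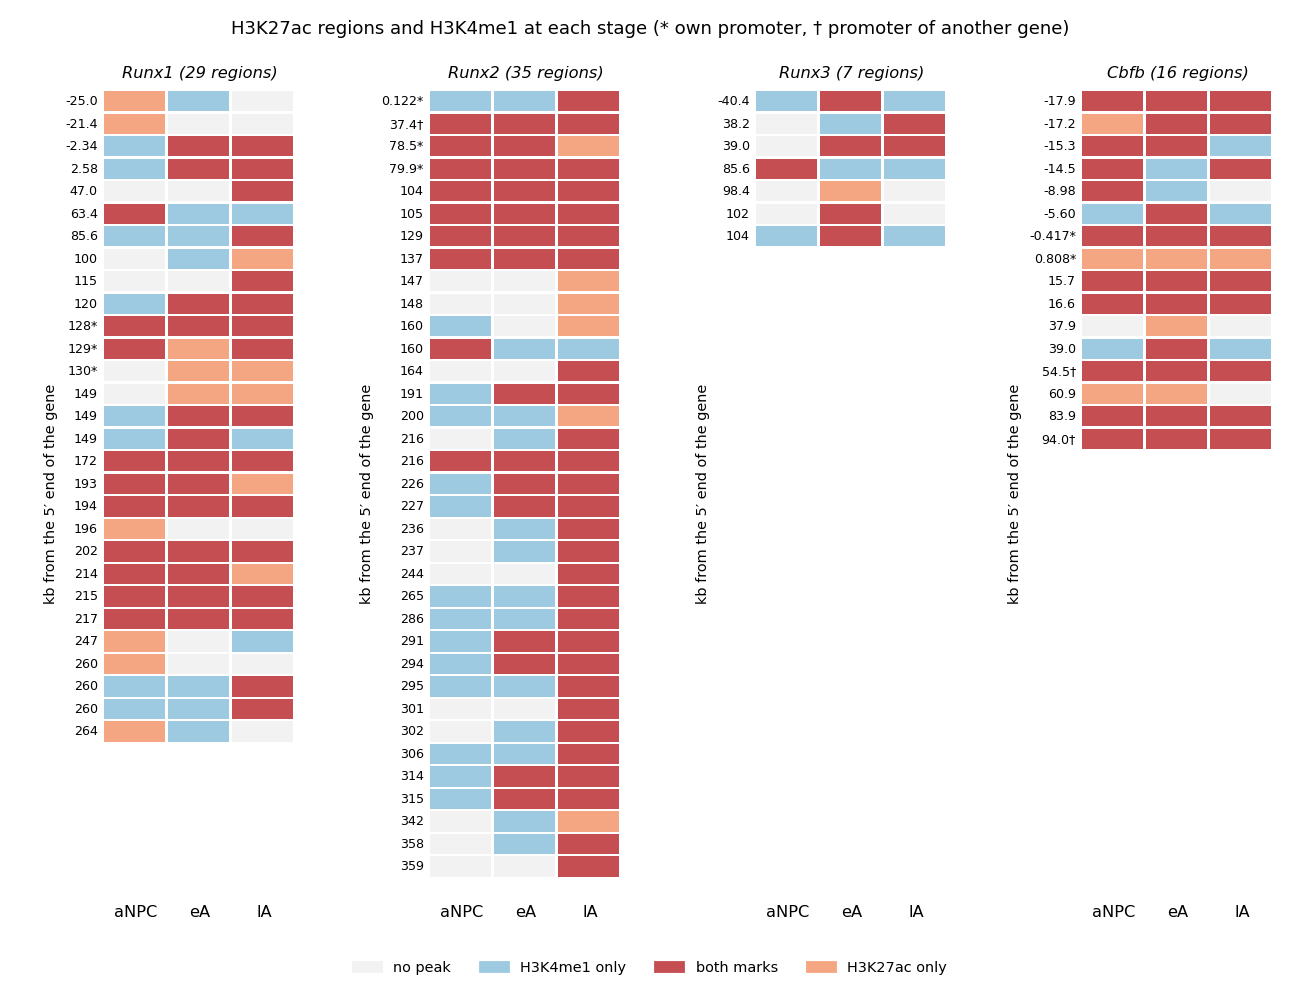
State of every H3K27ac region of the 4 windows in aNPC, eA and lA, in order of distance in kb from the 5′ end of the gene: no peak, H3K4me1 alone, both marks, or H3K27ac alone. At Runx2 the 7 regions marked by H3K27ac in eA and lA are all in the H3K4me1-only state in aNPC.

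All 7 Runx2 regions first marked by H3K27ac in eA had an H3K4me1 peak in aNPC (95% Wilson interval 64.6 to 100%), and so did 65.7% of all regions first marked in eA. The intervals here and below cover counting error over regions only. Of the 19 regions first marked in lA, 12 had an H3K4me1 peak in eA (63.2%, interval 41.0 to 80.9%) and 7 in aNPC (36.8%, interval 19.1 to 59.0%), where the whole list gave 60.5% and 30.3%. The lA values at Runx2 are thus within counting error of the list, and the list value for eA lies just inside the interval of 7 regions. Every H3K27ac peak of Runx2 in aNPC and eA overlapped an H3K4me1 peak of the same stage, 11 of 11 and 20 of 20, and 29 of 38 did in lA (76.3%). The lists gave 82.0%, 86.5% and 82.2%. In the other direction, 12 of 38, 17 of 49 and 26 of 65 Runx2 H3K4me1 peaks overlapped an H3K27ac peak of the same stage, where the lists gave 38.9%, 36.0% and 33.7%.

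The H3K4me1 peaks of Runx2 merged into 82 regions. Of these, 29 were in lA alone (35.4%, against 23.3% of all 251555 H3K4me1 regions) and 22 were marked at all stages (26.8%, against 39.1%). A further 12 were in eA and lA (14.6%, against 12.0%), 8 in aNPC and eA (9.76%, against 7.72%), 6 in aNPC alone (7.32%, against 7.80%) and 5 in eA alone (6.10%, against 8.11%). None were in aNPC and lA only, a pattern of 2.05% of all regions. The strongest H3K4me1 peaks of Runx2 lay in introns downstream of P2. In aNPC the highest, chr17:44846555-44847128 at 105 kb, was above 92.2% of its list and was followed by the P2 peak with 90.5%. In eA the highest was its neighbour at 104 kb, chr17:44847333-44848491, above 99.1% of the list, followed by the peak at 129 kb with 97.0%. In lA the peaks at 226 kb (chr17:44725289-44726379) and at 104 kb (chr17:44847345-44848568) were both above 97.9%, and the peak at 190 kb was above 95.3%. The strongest H3K4me1 peaks and the strongest intronic H3K27ac peaks of lA were therefore at the same places, shown above by their sequences. By contrast, the peak at 286 kb, chr17:44665185-44666477, was above 94.3% of the lA list for H3K4me1, while the H3K27ac peak there was found in lA alone with a −log10 q of 6.22. H3K4me1 regions marked at all stages numbered 17 of 48 at Runx1, 6 of 22 at Runx3 and 14 of 24 at Cbfb.

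Runx1, a regulator of blood stem cells, had 19, 23 and 23 H3K27ac peaks in aNPC, eA and lA, and these covered 2.65%, 3.08% and 4.10% of its 325-kb window. The ratio of lA to aNPC was 1.21, close to the median of 1.20. The peaks numbered 12, 21 and 14 at a −log10 q of at least 5, and 14, 23 and 21 with 5 kb on each side of the gene body. For H3K4me1 it had 30, 39 and 34 peaks, which covered 5.85%, 7.53% and 6.74%. The coding genes closest to it over the 6 lists were Bnip3l, Peli3 and Fn1, at 0.693, 0.762 and 0.829 percentage points. Its highest H3K4me1 peak was at 172 kb in aNPC (above 95.5% of the list), at 121 kb in eA (89.4%) and at 194 kb in lA (96.6%). These intronic elements had H3K4me1 peaks at every stage, and in eA the peak at 193 kb was almost level with the highest (89.1%).

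P2 was the marked promoter of Runx1. It had 2 H3K27ac peaks in aNPC and 3 each in eA and lA, and P1 had no peak of either mark at any stage. The region chr16:92696624-92697582, which spans the outermost P2 start, ranked above 62.6%, 86.8% and 90.1% of the peaks in the lists from aNPC to lA, and was the highest Runx1 peak in eA and lA. Although P1 itself was free of peaks, it was flanked by regions 2.34 kb upstream and 2.58 kb downstream that had H3K4me1 at all stages and H3K27ac in eA and lA only. Their H3K27ac peaks had −log10 q values between 4.35 and 8.81, above 15.5% to 52.7% of the lists.

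Of the 29 H3K27ac regions of Runx1, 9 were marked at all stages (31.0%, against 26.0% of all regions). Another 6 were in eA and lA (20.7%, against 13.9%) and 6 in lA alone (20.7%, against 19.3%). The remaining regions were 1 in eA alone and 7 in aNPC alone. The aNPC-only share was 24.1%, where 21.5% of all regions were aNPC-only, and the eA-only share was 3.45%, where the genome gave 11.1%. The highest Runx1 peaks of aNPC formed the intronic region chr16:92653260-92655701, 172 kb from the 5′ end, where the highest −log10 q was above 81.7%, 64.9% and 76.7% of the peaks in the lists from aNPC to lA. A second region, at 202 kb, had a peak of 229 bp above 4.11% of the list in aNPC, and peaks above 57.3% in eA and 80.7% in lA. Its eA summit window, shown above, holds 2 RUNX words. Between P1 and P2 lay the region chr16:92705386-92706881, whose lA summit was at -8089 bp from the nearest P2 start. It had H3K4me1 at all stages, no H3K27ac in aNPC, and H3K27ac above 59.5% of the list in eA and above 79.0% in lA. It was a single peak of 1496 bp in lA.

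Runx3, which acts in T cells and sensory neurons, had the fewest H3K27ac and H3K4me1 peaks of the 4 genes within 50 kb. It had 1, 5 and 2 H3K27ac peaks from aNPC to lA in its 157-kb window, a cover of 0.125%, 1.05% and 0.620% that was above only 18.8%, 27.2% and 22.4% of coding genes. Neither promoter had H3K27ac. P2 had 1 H3K4me1 peak in aNPC and 1 in eA and none in lA, and P1 had none. The numbers are too small for a ratio of peaks, and they depend on the window. H3K27ac peaks numbered 0, 1 and 2 with 5 kb on each side of the gene body and 7, 14 and 12 with 100 kb, where its 36 and 38 H3K4me1 peaks in aNPC and eA exceeded the 32 and 34 of Cbfb.

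Within Runx3, H3K27ac was found in a single stretch of intron, 38.2 to 39.0 kb from the 5′ end and downstream of P2. There, the region chr4:134715201-134716016 had no peak of either mark in aNPC. In eA it had an H3K27ac peak of 211 bp above 45.1% of its list, whose summit window holds 3 RUNX words, and in lA one of 779 bp above 64.9%. H3K4me1 peaks covered it in eA (1224 bp) and lA (1593 bp). The most prominent H3K4me1 peak of the Runx3 window lay in the 3′ flank, 85.6 kb from the 5′ end, at all stages. It was above 99.3%, 98.3% and 91.2% of the lists of aNPC, eA and lA, but the only H3K27ac there was a 196-bp peak in aNPC with a −log10 q of 4.13. The remaining H3K27ac peaks were in eA alone, 1 in the 5′ flank and 3 inside Clic4, a chloride channel gene at the edge of the window.

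Cbfb, the gene of the shared partner, kept H3K27ac throughout. It had 13, 17 and 11 H3K27ac peaks in aNPC, eA and lA, which covered 4.80%, 5.96% and 4.21% of its 147-kb window. The peaks numbered 11, 10 and 9 at a −log10 q of at least 5, and 4, 7 and 4 with 5 kb on each side of the gene body. The cover was above that of 77.4%, 83.4% and 68.1% of coding genes. The difference in cover from eA to lA was -1.74 percentage points, and 2.92% of coding genes had a lower value. H3K4me1 had 20, 22 and 23 peaks, which covered 8.10%, 8.26% and 9.12%. The intronic H3K4me1 peak near 16.0 kb was above 88.7%, 98.2% and 93.6% of the lists, and it had H3K27ac at all stages. Med26, Cherp and Ddx46 were its closest genes over the 6 lists, at 0.709, 0.863 and 0.888 percentage points.

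The main region at the Cbfb promoter, chr8:107694575-107696189, had the highest −log10 q of all H3K27ac peaks of the 4 windows in aNPC and eA. In lA the main peak of this region, with 39.7, was below 4 peaks in the Runx2 window. The region had a −log10 q of 295 in aNPC, above 99.5% of the list, and ranked above 95.7% of peaks in eA and 93.0% in lA. No H3K4me1 peak overlapped it at any stage, and H3K4me1 lay just upstream. In lA the main peak began downstream of the promoter interval, so that the promoter count of lA rests on a smaller peak, at chr8:107693989-107694290, with a −log10 q of 4.07. The upstream region chr8:107676257-107677079 was marked by both histone modifications at all stages, with a −log10 q of 121 in aNPC, and above 91.5% and 86.4% of the H3K27ac lists of eA and lA. Of the 16 H3K27ac regions, 9 (56.2%) were marked at all stages and none in lA alone. Of all regions, 26.0% were marked at all stages and 19.3% in lA alone. A further 2 were marked in aNPC and eA (12.5%, against 4.87% of all regions) and 1 in aNPC and lA (6.25%, against 3.30%). These 9 include the promoters of neighbouring genes, D230025D16Rik and the pair Tradd and Fbxl8, so that 2 of the 9 are promoters of genes other than Cbfb.

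**Figure D4:**
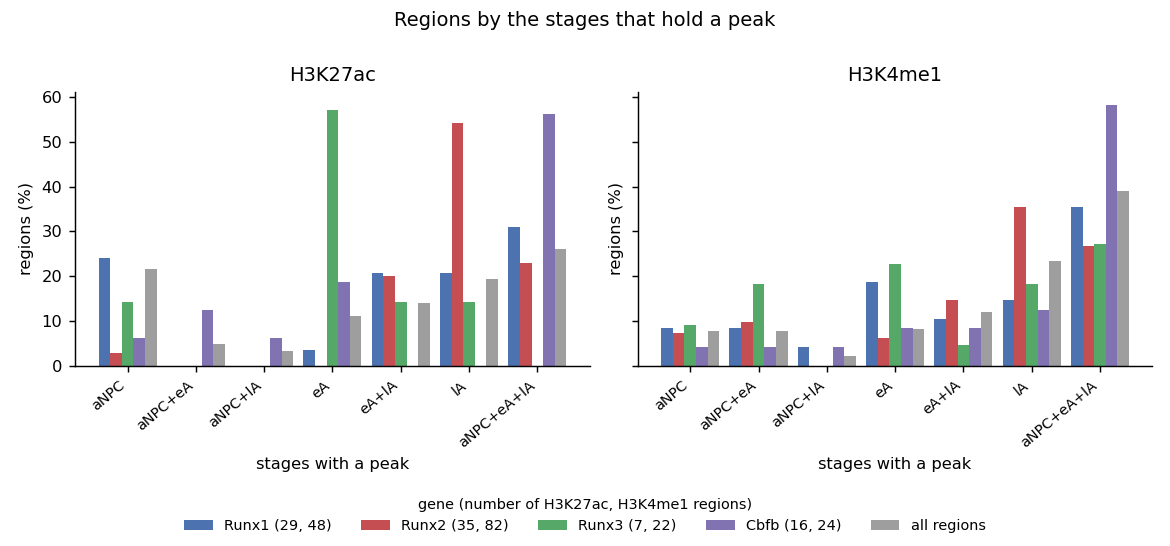
Percent of the H3K27ac regions (left) and H3K4me1 regions (right) of each gene that had a peak in the stages named on the horizontal axis, with all regions of the genome in grey. The tallest H3K27ac bars are lA alone for Runx2 (54.3% of 35 regions), all stages for Cbfb (56.2% of 16) and eA alone for Runx3 (57.1% of only 7).

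Set side by side, 3 of the 4 genes had an H3K27ac promoter peak at each stage, and these were Runx1, Runx2 and Cbfb. In lA the call at Cbfb was lost, leaving 2 genes, when a −log10 q of at least 5 or 10 was asked for or the lists were made equal in size. Over all coding genes, as given above, 50.6%, 53.3% and 48.2% had one. An H3K4me1 promoter peak was found at all 4 genes in aNPC and eA and at 3 in lA, where Runx3 had none, and the genome gave 55.5%, 53.7% and 52.8%. The 4 windows together held 44, 65 and 74 H3K27ac peaks, but eA exceeded lA at a −log10 q of at least 5 (31, 52 and 47) and with equal list sizes (44, 61 and 54). Introns took 22, 41 and 51 of the full number, and own promoters 6, 7 and 8. The gene body makes up 225 kb of the 325-kb Runx1 window and 319 kb of the 419-kb Runx2 window. The intronic share over all peaks was not counted. H3K4me1 totals were 100, 127 and 133, and 100, 100 and 111 with equal list sizes. Between aNPC and lA the difference was 27 H3K27ac peaks at Runx2, 4 at Runx1, 1 at Runx3 and -2 at Cbfb. With equal list sizes it was 14 at Runx2, 0 at Runx1 and Runx3 and -4 at Cbfb. The difference in cover from aNPC to lA at Runx2, for both marks, lay above those of the other 3 genes, which were 1.46 percentage points at Runx1, 0.495 at Runx3 and -0.584 at Cbfb for H3K27ac.

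**Figure D5:**
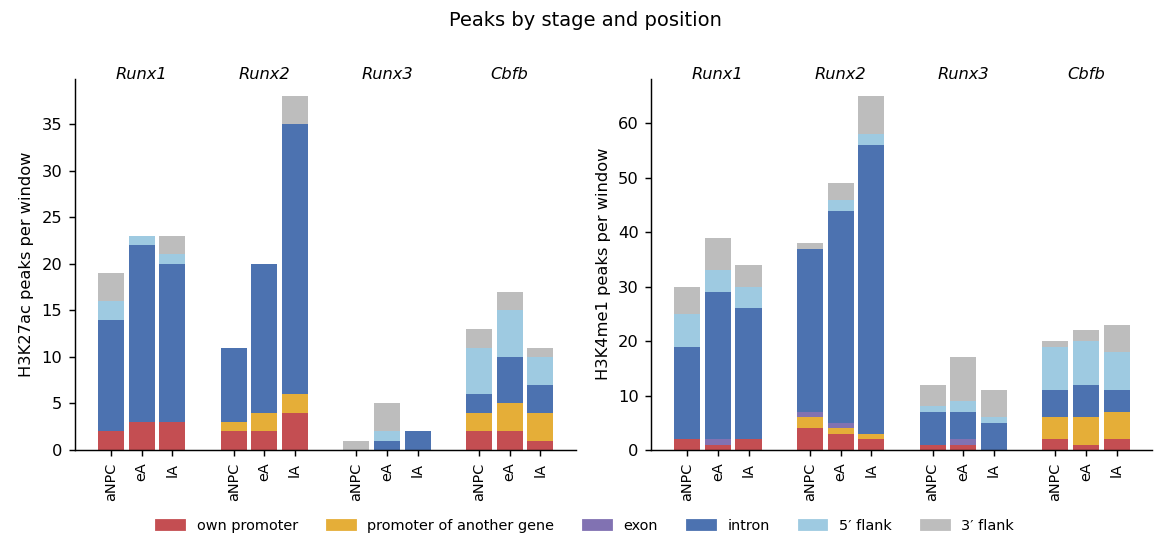
Number of H3K27ac peaks (left) and H3K4me1 peaks (right) in the window of each gene at aNPC, eA and lA, stacked by position of the peak. At Runx2 the intronic peaks number 8, 16 and 29 for H3K27ac and 30, 39 and 53 for H3K4me1.

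Matches to short sequence words were counted in the 200 bp around the summits. The RUNX word was found in 4 of 44 H3K27ac peaks of the 4 windows in aNPC (9.09%, interval 3.59 to 21.2%), 15 of 65 in eA (23.1%, interval 14.5 to 34.6%) and 11 of 74 in lA (14.9%, interval 8.51 to 24.7%). The lists as a whole gave 16.4%, 16.0% and 16.3%, all inside these intervals. With the longer word TGTGGTT alone, the eA share was 9.23% (6 of 65, interval 4.30 to 18.7%), and the 3.73% of the list lay below its interval. This is 1 of many intervals compared without correction, and the longer word was not counted in 500 bp. In aNPC and lA the share with TGTGGTT was 2.27% and 2.70%, both under the 3.90% of either list and within counting error of it. At Runx2 alone, the number of peaks with the word was 0 of 11, 5 of 20 and 7 of 38. The AP-1 word TGACTCA was found in 3, 6 and 2 of the H3K27ac peaks, which is 6.82% (interval 2.35 to 18.2%), 9.23% (interval 4.30 to 18.7%) and 2.70% (interval 0.744 to 9.33%). The lists gave 3.61%, 3.58% and 3.47%, of which the value for eA lay below its interval. In 500 bp around the summits the eA list value, 11.0%, lay inside the interval of the windows, 10.9 to 29.6%. The NFI word, TTGGC and GCCAA with any 5 bases between them, and the STAT word TTCCNGGAA were in none of them. Both words are rare at 200 bp, the NFI word with matches in at most 0.0252% of an H3K27ac list and the STAT word in 0.643%, 0.645% and 0.693%, so that these counts of 0 say nothing about the 4 genes. Both strands were searched, and no word is contained in the word of another factor. A match is a string of letters and not a measured binding site.

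Among 12 genes of known RUNX partners, 10 had an H3K27ac promoter peak at every stage, Tle1 to Tle4 among them, which code for Groucho corepressors that bind the C-terminus of RUNX proteins. The share among coding genes was 50.6%, 53.3% and 48.2%. The exceptions were Cbfa2t3 and Hdac4. The partners' median share under H3K27ac peaks was 3.24%, 3.12% and 3.73%, where the median coding gene had 2.44%, 2.70% and 2.73%. Of 10 genes known as RUNX targets in bone and blood, Alpl (alkaline phosphatase) had an H3K27ac promoter peak in aNPC and in lA, and the other 9 had none at any stage. Several nonetheless had H3K27ac peaks elsewhere in their windows. Spp1, which codes for osteopontin, had 8, 15 and 19 peaks and a cover of 4.28%, 6.43% and 8.97%. Mmp13, a collagenase, had 0, 6 and 8 peaks. Csf1r, a cytokine receptor of macrophages, had 3, 4 and 9. Alpl (16, 9 and 12) and the integrin gene Itgal (11, 10 and 9) had fewer in lA than in aNPC, and Col10a1 had 1 at each stage. The median cover of the target list was 2.35%, 2.54% and 3.46%.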

How the data were processed

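ChIP-seq of H3K27ac and H3K4me1 in aNPC, eA and lA was taken from 12 of the 51 samples. RNA-seq and knockdown samples were not analysed here, and 8 RNA-seq samples have labels that conflict. Per the labels and methods, the authors checked reads with FASTQC (2.6.14), aligned them uniquely to mm9 with Bowtie (0.12.9), merged replicates with SAMTOOLS (0.1.19), and called peaks with MACS (2.0.10.20120913) at default settings without input. The deposited lists give each peak's −log10 q-value, which was ranked within a list and used as a fixed threshold in alternatives only, and another column, the summit's offset from the peak start, which the authors' caller wrote. Mitochondrial peaks were left out.

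Genes came from GENCODE M1, with 22219 coding genes. The mm9 genome sequence was used for motif words, and no peak ran past the end of a chromosome. A promoter spanned 1 kb before and 100 bp after a coding start site. Start sites more than 5 kb apart were taken as separate promoters. Peaks of the 3 stages that shared at least 1 bp were joined into regions. Other peaks were placed by their summit. A ratio of peak counts was compared over windows with at least 10 peaks in either stage. Named genes were the 4 members, their promoters and the 5 peaks with the highest −log10 q per list, the 3 coding genes nearest by Euclidean distance of cover over the 6 lists, neighbours with a start site in a window, and the gene lists. Kat6a and Spi1 were matched as Myst3 and Sfpi1. The 4 genes and the lists were chosen with earlier results of these data known. Shares with H3K4me1 before H3K27ac and shares with a motif word carry 95% Wilson intervals. No test between stages was made, because each stage has 1 merged list. Alternatives were the threshold on −log10 q, equal list sizes, the window, the promoter, the joining of peaks and the motif window. Python 3.11.15, NumPy 2.4.6, SciPy 1.17.1 and matplotlib 3.10.9 were used, and the counting was tested on simulated peaks.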

Additional observations from a re-analysis of the deposited data

How the results depend on the processing

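The promoter counts held under a promoter of 1 kb on either side and under summits inside the promoter. Genes with an H3K27ac promoter peak in lA numbered 2, not 3, at a −log10 q of at least 5 or 10 and with equal list sizes, because the Cbfb promoter peak of lA has a −log10 q of 4.07. The difference between the share with the RUNX word in the 4 windows and that in the lA H3K27ac list was -1.40 percentage points at 200 bp and 3.70 at 500 bp. With TGTGGTT alone the eA list value fell outside the interval of the windows, which rests on 6 of 65 peaks and is 1 of many intervals compared. With a −log10 q of at least 10, the 4 windows held 18, 28 and 31 H3K27ac peaks in aNPC, eA and lA and 54, 55 and 57 H3K4me1 peaks, 1 gene had an H3K4me1 promoter peak in lA, and 4 aNPC-only, 1 eA-only, 6 lA-only and 10 all-stage H3K27ac regions were left. The share of lA-first regions with H3K4me1 in eA was 65.4% of 26 over the full lists (60.5% over the genome). At a −log10 q of at least 10 it was 83.3% of 6 (60.2% over the genome). It was 58.3% of 12 with equal list sizes (57.3% over the genome). With the H3K27ac summit inside the H3K4me1 peak it was 13 of 26 (47.7% over the genome). At a −log10 q of at least 5, the windows held 31, 52 and 47 H3K27ac peaks, and aNPC-only, lA-only and aNPC-and-lA regions numbered 4, 8 and 0. With equal list sizes they held 44, 61 and 54, lA-only regions numbered 12, aNPC-and-eA regions 4 and aNPC-and-lA regions 0. With 5 kb on each side, aNPC held 29 H3K27ac peaks, and aNPC-only, eA-only, aNPC-and-eA and aNPC-and-lA regions numbered 3, 3, 0 and 0. With 100 kb, aNPC-and-lA regions numbered 3. Joining peaks within 500 bp left 16 lA-only regions, 1 aNPC-and-eA region and 2 aNPC-and-lA regions.

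The difference in H3K4me1 peaks from aNPC to lA changed sign at Runx1 (4, but -2 at a −log10 q of at least 10 and -3 with equal list sizes), at Runx3 (-1, but 1 at 10) and at Cbfb (3, but -2 at 10). For H3K27ac the difference was 0 with equal list sizes at Runx1 (4 over the full lists) and Runx3 (1 over the full lists), and at Cbfb it was -4 with equal list sizes and 0 with 5 kb on each side. At Runx1 it was 7 with 5 kb. At Runx2 the difference stayed positive for both marks under all alternatives, between 12 and 28 for H3K27ac and between 6 and 29 for H3K4me1. The causes were not tested. No paired analysis was possible because the replicates of each stage were merged into 1 list, and leaving out a replicate was not possible for the same reason. The unknown depth limits any comparison of counts between stages.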

Other observations

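Among genes with a start site in one of the windows, Supt3h, D230025D16Rik, Tradd and Fbxl8 had promoter peaks of both marks at all stages. B3gnt9-ps had an H3K4me1 promoter peak in aNPC and eA and no H3K27ac promoter peak. Ces4a, a carboxylesterase gene upstream of Cbfb, had no promoter peak of either mark at any stage.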
